A study of Mus musculus with 16 samples.

Results

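The major histocompatibility complex (MHC) of the mouse, called H2, lies on chromosome 17, and many genes with no role in antigen presentation are interleaved with it or lie beside it. The probes described here are those linked genes. They were chosen by position, as probes placed in one stretch of chromosome 17 (the first at base 32027619 and the last ending at 35416203, build mm7), with the H2 genes and several other gene families left out by name, and they were proposed for a pattern seen in these same data, namely that their levels moved from array to array with those of the class I genes. That covariation is therefore a description here and carries no test. The rule gave 185 probes for 136 genes, out of 41174 probes for 27669 genes on the array. Current RefSeq names (GRCm38.p6, used for names only) exist for 157 of them, and they call 3 of the probes H2 genes under an older name in the files. In the range itself lay 261 probes, of which 76 were left out by name. Of the 185 linked probes, 114 probes for 86 genes were bright enough to be tested over all arrays, 90 were well above background on every array and 34 on none. The 71 probes that were not tested include all 9 probes of olfactory receptors and those of the cytokines Tnf and Lta, and they support no statement below.

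Lumbar spinal cord RNA was measured in 4 groups of 4 male mice on the mixed B6SJL background: wild-type (non-transgenic) and SOD1G93A mice, each at 40 and at 80 days. SOD1G93A mice carry a human SOD1 transgene with a mutation that causes amyotrophic lateral sclerosis, and both ages are before symptoms. By the study's methods each group began with 5 mice, and arrays of low quality were left out, which leaves 4. Every sample was labelled with Cy3 and hybridised beside one Cy5 reference, a pool of neonatal heart, kidney and liver RNA from non-transgenic and SOD1G93A mice, so each value is a log2 ratio of cord over that pool. Slide and replicate number are the same thing, since each of the 4 slides held 1 array of every group, always at the same place, and the place on the slide and the group cannot be told apart. The 16 arrays had 46.1 to 55.3% of probes well above background in Cy3, with the lowest share on wild-type 40 days replicate 4, and precision is limited by 4 mice per group. SOD1G93A 80 days replicate 4 had a median deviation of 0.74 over 23 microglia and macrophage probes and 0.41 over 26 interferon response probes, against -0.34 to 0.46 and -0.18 to 0.28 on the other 15 arrays. The neuron markers lay at 4.09 to 4.39 and the oligodendrocyte markers at 2.93 to 3.85 (log2 ratio, median of the list per array). The 2 probes for mouse Sod1 differed between genotypes by -0.18 to 0.11 and do not check the human transgene.

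Class I genes such as H2-K1 and H2-D1 encode the proteins that show peptides to cytotoxic T cells, and nearly every cell makes them. The genes between them include the class III region, which holds complement genes, and housekeeping genes for chromatin, RNA processing, translation and protein quality control. Because they sit close together, a mouse tends to inherit the whole stretch as a block, and C57BL/6 and SJL, the strains behind B6SJL, carry different H2 blocks. Which block each mouse carried was not typed, and its part in the values below was not tested.

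The sequences of the linked probes were compared with those of the class I probes on the array, not with whole class I transcripts. Likeness to other parts of class I RNA was thus not checked. Of the 185 probes, 6 were described by the array's annotation as class I or shared 20 or more bases in a row with a class I probe, and 4 of those were tested. They are shown with the class I probe they share bases with, all of them 60 bases, 5′ to 3′, with the shared run in capitals. Positions are those of the deposited files in build mm7. Files of the array name 2 of the probes LOC56628. The one with the widest spread, A_52_P313279, lies at chr17:33361545-33361604, plus strand, and RefSeq gives its accession to H2-Q2. It shares 24 bases in a row with the H2-Q2 probe, and aligned without gaps 47 of 50 bases (94%) matched. The other LOC56628 probe (chr17:32074453-32074507, minus strand) shares 25 bases in a row with an H2-K1 probe, and 49 of 57 (86.0%) matched. ENSMUST00000087244 (chr17:32053803-32053862, minus strand) shares 35 bases in a row with the H2-Q2 probe, and 45 of 50 (90%) matched. For LOC630499, class I by its description only, the best match with a class I probe was 26 of 48 (54.2%).

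The sequences were as follows.
LOC56628 (A_52_P313279): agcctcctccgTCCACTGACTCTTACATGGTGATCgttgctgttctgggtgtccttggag
H2-Q2 (A_51_P219789): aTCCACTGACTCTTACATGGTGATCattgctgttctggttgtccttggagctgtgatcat
LOC630499 (A_51_P502456), class I by its description: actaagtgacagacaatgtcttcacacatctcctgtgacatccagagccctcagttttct
LOC56628 (A_51_P190499): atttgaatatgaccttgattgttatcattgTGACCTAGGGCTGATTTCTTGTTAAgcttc
H2-K1 (A_51_P198434): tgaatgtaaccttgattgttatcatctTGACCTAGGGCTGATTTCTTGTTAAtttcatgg
ENSMUST00000087244 (A_51_P444565): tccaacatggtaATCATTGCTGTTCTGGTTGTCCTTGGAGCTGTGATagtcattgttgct
H2-Q2 (A_51_P219789), other run in capitals: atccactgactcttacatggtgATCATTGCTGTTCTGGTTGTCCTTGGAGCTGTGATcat

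The class I score of an array is the first principal component of 22 class I probes, each taken as its deviation from the mean of its group, and it held 80.1% of their variance. It was highest on wild-type 40 days replicate 4 (0.59), SOD1G93A 40 days replicate 1 (0.40) and wild-type 80 days replicate 1 (0.31), and lowest on SOD1G93A 40 days replicate 4 (-0.34). Within the groups, 23 of the 114 linked probes ran with the score at r of 0.6 or more, 10 ran against it at -0.6 or less, and 81 lay between. An absolute r of 0.6 or more was thus found in 33 of 114, or 28.9%, against 5.21% of all 21953 tested probes. The share depended on the arrays and the score. It was 14.04% (all probes 3.27%) without wild-type 40 days replicate 4 and 17.5% (4.04%) without the 2 arrays of highest score. Against H2-K1 probe A_51_P198434 alone, whose r with the score was 0.81, it was 7.02% (3.25%). The other H2-K1 probes had r of 0.99 and 0.86 and were not used in this way. The median absolute r was 0.44 for the linked probes (0.43 without the 4 class I-like ones), 0.25 for all tested probes and 0.29 for the 830 tested probes elsewhere on chromosome 17. Without the 2 arrays of highest score, the values were 0.36 and 0.25. Spread within groups was also wider, with a median SD of 0.15 for the linked probes and 0.11 for all. In the Cy5 reference channel the medians of absolute r were 0.16 and 0.16, so there the linked probes did not follow the score more closely than other probes.

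**Figure D1:**
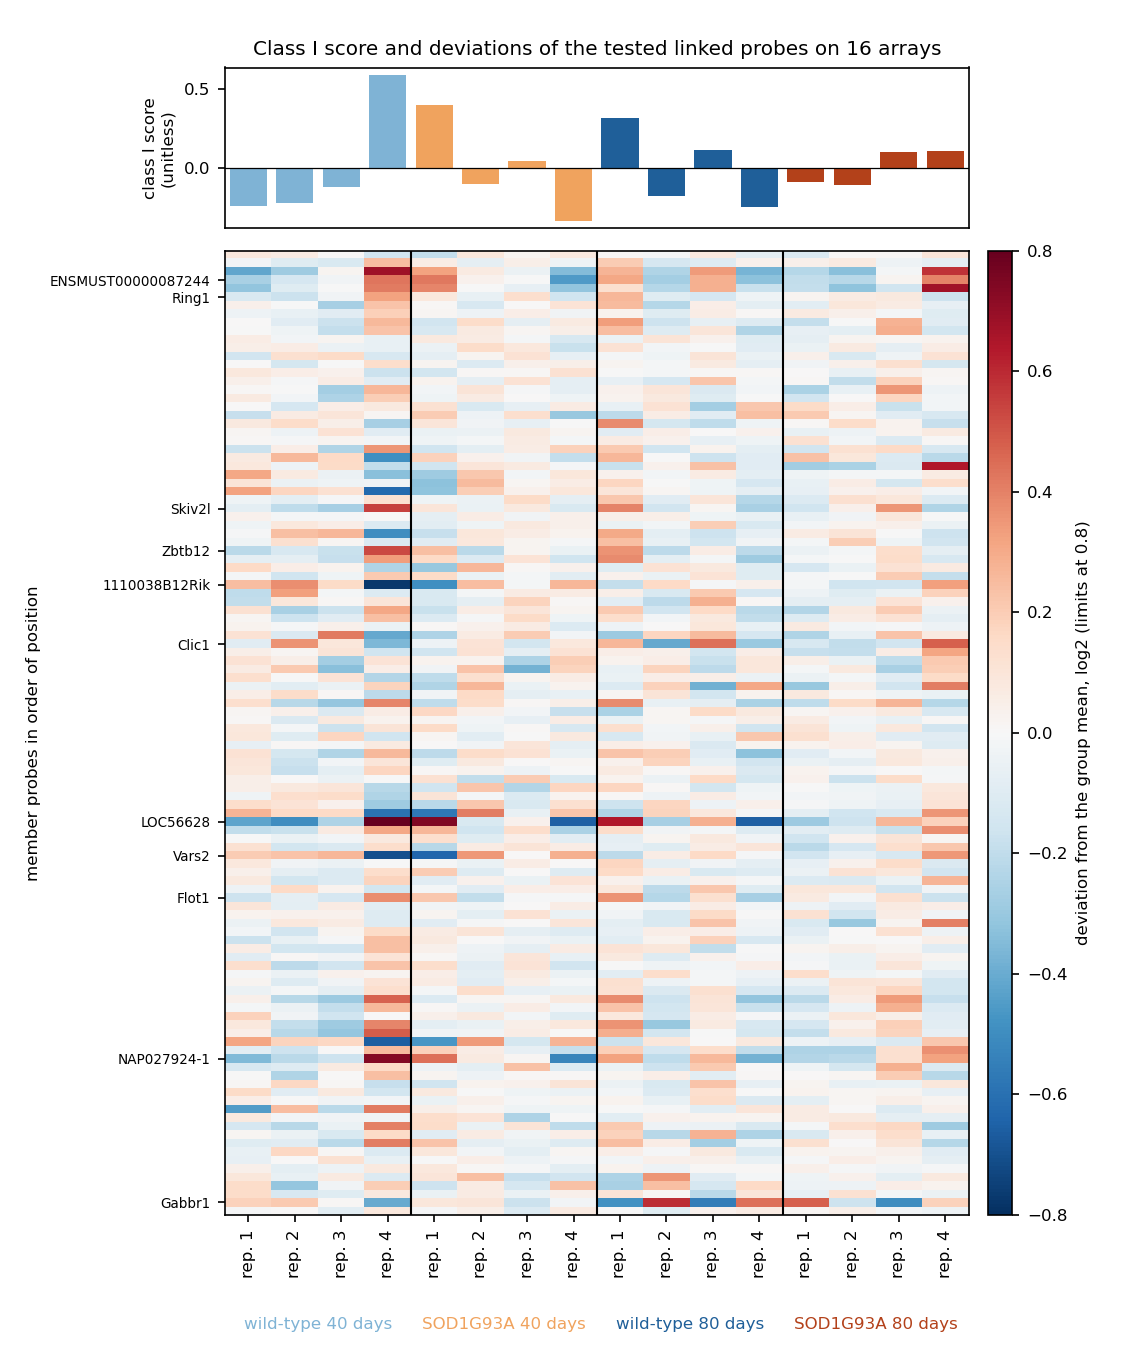
Deviation of each of 114 tested linked probes (rows, in order of position on chromosome 17) from its group mean on the 16 arrays (columns), in log2 units, with the class I score of each array as bars above, coloured by group. Wild-type 40 days replicate 4 and SOD1G93A 40 days replicate 1, the 2 arrays of highest score, show the strongest red and blue rows, among them LOC56628 (red) and Vars2 (blue).

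The closest follower was the LOC56628 probe with the H2-Q2 run, at r = 0.99 (rho 0.96, 16 arrays) and 0.98 without the 2 arrays of highest score. The log2 ratios were -1.55, -1.62, -1.38 and 0.04 in wild-type 40-day mice (replicates 1 to 4 in order, as in every list of values here), -0.17, -1.07, -0.53 and -1.46 in wild-type 80-day mice, -0.26, -1.12, -0.96 and -1.65 in SOD1G93A 40-day mice and -0.37, -0.24, 0.19 and 0.11 in SOD1G93A 80-day mice. Compared with the rest of their own group, the high mice were replicate 4 of the wild-type 40-day mice, replicates 1 and 3 of the wild-type 80-day mice and replicate 1 of the SOD1G93A 40-day mice. All 4 SOD1G93A 80-day mice were high, and their replicate 3 was the highest of the 16. The 3 other class I-like probes had r of 0.90 (ENSMUST00000087244), 0.87 (LOC630499) and 0.75 (the second LOC56628 probe). For these 3, SOD1G93A 80 days replicate 4, the array with the highest microglia and interferon markers, was the highest of its group, at 0.08, 0.01 and -0.04. The markers' part in those values was not tested.

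The transcript NAP027924-1 (chr17:34275870-34276045, minus strand), to which the files give no gene, followed the score at r = 0.96 and was not counted as class I-like, since it shares no run of 20 or more bases with a class I probe. Aligned without gaps, however, 28 of 33 bases (84.8%) matched the LOC56628 probe A_52_P313279, a comparison made after its sequence was seen, while the best matches of the Ddx39b, Vars2 and Neu1 probes printed further on with a class I-like probe were 41.9 to 51.6%. Its best match with a class I probe on the array, one for H2-T3, was 52.9%, and whether class I RNA binds to it was not tested. Its ratios were -1.24, -1.10, -1.05 and -0.15 in wild-type and -0.41, -0.78, -0.84 and -1.38 in SOD1G93A mice at 40 days, and -0.26, -0.79, -0.33 and -0.97 in wild-type and -0.33, -0.31, 0.03 and 0.22 in SOD1G93A mice at 80 days. The mice that were high for LOC56628 were high here too, the SOD1G93A 80-day mice included.

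Its sequence is printed to be set beside that of LOC56628 above.
NAP027924-1 (A_52_P57582): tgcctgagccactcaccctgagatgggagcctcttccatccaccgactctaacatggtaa

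Among probes with a named gene that were not counted as class I-like, Zbtb12, a BTB and zinc finger protein, came first at r = 0.90 (0.80 without the 2 arrays of highest score). Its ratios were -0.98, -0.89, -0.94 and -0.23 in wild-type and -0.41, -0.86, -0.62 and -0.70 in SOD1G93A mice at 40 days, and -0.29, -0.86, -0.59 and -0.86 in wild-type and -0.57, -0.54, -0.38 and -0.59 in SOD1G93A mice at 80 days. Wild-type 40 days replicate 4 and wild-type 80 days replicate 1 were the highest of their groups. Next came Ehmt2, a histone methyltransferase (r = 0.84), Flot1, a scaffold of lipid rafts (r = 0.81), and Skiv2l, a helicase that feeds RNA to the exosome (r = 0.78). Skiv2l read 0.69, 0.56, 0.50 and 1.31 in wild-type and 0.93, 0.78, 0.90 and 0.70 in SOD1G93A mice at 40 days, and 1.17, 0.62, 0.79 and 0.52 in wild-type and 0.97, 1.17, 1.48 and 0.89 in SOD1G93A mice at 80 days. Trim26, a TRIM family ubiquitin ligase, had r of 0.76 and 0.44 in its 2 probes, and Ring1, the ubiquitin ligase of a Polycomb complex, had r of 0.75 and 0.51. Both probes of Abcf1, a translation factor (0.68 and 0.59), and of Gnl1, a GTP-binding protein (0.68 and 0.59), also ran with the score.

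By role, the 18 probes for RNA processing and translation had the highest median absolute r among lists with 8 or more tested probes, 0.58. The 14 for chromatin and transcription followed at 0.49. The kinase and GTPase list (12 probes, those of Atat1 among them) and the lipid and sugar genes (8 probes) were both at 0.42. The protein quality list (11 probes) had 0.33. The immune list of the class III region (13 probes, that of 1110038B12Rik among them) had 0.27, near the 0.25 of all tested probes. Taken as the list's median on each array, the chromatin list had r = 0.71 with the score and the immune list r = -0.69. The array medians of the microglia, interferon, astrocyte, oligodendrocyte and neuron lists had r with the score of 0.12, -0.16, 0.09, -0.17 and -0.22. Without the 2 arrays of highest score these became 0.28, 0.10, -0.13, -0.49 and -0.49, the blood, endothelium and muscle list had 0.41, and the chromatin and immune lists 0.62 and -0.39. On those 14 arrays the neuron and oligodendrocyte lists thus followed the score more closely than the immune list, and the part of cell composition in the linked probes' values was not tested.

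The probes that ran against the score were led by BC023719 (r = -0.85), the 2 probes of Ddx39b, a helicase of mRNA splicing and export (r = -0.84 and -0.76), 1110038B12Rik (r = -0.83), 1 of 2 probes of the homeobox gene Pbx2 (r = -0.78, the other 0.47) and 1 of 2 probes of Vars2, the mitochondrial valyl-tRNA synthetase (r = -0.77). Ddx39b probe A_51_P388099 read -0.07, -0.18, -0.18 and -0.93 in wild-type and -1.06, -0.08, -0.55 and -0.27 in SOD1G93A mice at 40 days, and -0.53, -0.11, -0.21 and -0.30 in wild-type and -0.46, -0.54, -0.51 and -0.03 in SOD1G93A mice at 80 days. Wild-type 40 days replicate 4 and SOD1G93A 40 days replicate 1 were the lowest of their groups, and they were the same 2 mice that were high in LOC56628. For BC023719 the ratios were 0.59, 0.45, 0.44 and -0.39 in wild-type and -0.30, 0.50, 0.02 and 0.43 in SOD1G93A mice at 40 days, and 0.27, 0.53, 0.45 and 0.52 in wild-type and 0.23, 0.20, 0.15 and 0.48 in SOD1G93A mice at 80 days. For 1110038B12Rik they were -0.74, -0.61, -0.83 and -1.76 in wild-type and -1.60, -0.86, -1.12 and -0.84 in SOD1G93A mice at 40 days, and -0.87, -0.53, -0.70 and -0.65 in wild-type and -1.05, -1.19, -1.18 and -0.70 in SOD1G93A mice at 80 days. In all 3 the 2 mice of highest score were the lowest of the 8 mice at 40 days. Without those 2 arrays the r of these probes fell in size, to -0.43 for that Ddx39b probe, -0.63 for BC023719, -0.56 for 1110038B12Rik and -0.40 for Vars2.

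Probes of the same gene did not always move together. Of 23 genes with 2 or more tested linked probes, all r had the same sign in 16. In Neu1, the lysosomal sialidase, probe A_51_P428035 had r = -0.58 and probe A_52_P58524 had r = 0.70. The first read 0.86, 0.75, 0.73 and 0.46 in wild-type and 0.31, 0.88, 0.62 and 0.64 in SOD1G93A mice at 40 days, and 0.64, 0.84, 0.81 and 0.63 in wild-type and 0.61, 0.68, 0.85 and 0.81 in SOD1G93A mice at 80 days, lowest in the 2 mice of highest score. The second read 0.13, -0.01, 0.11 and 0.36 in wild-type and 0.31, 0.10, 0.14 and 0.07 in SOD1G93A mice at 40 days, and 0.17, 0.08, 0.25 and 0.04 in wild-type and 0.25, 0.26, 0.47 and 0.08 in SOD1G93A mice at 80 days, and there the same 2 mice were the highest of their groups. In Vars2, probe A_52_P590235 read -0.26 and -0.29 in those 2 mice, against 0.35 to 0.71 in the other 6 at that age. Probe A_52_P185639 (r = 0.25) lay between 0.00 and 0.22 in all 8. Of the 3 probes of Gabbr1, a subunit of the GABA-B receptor, A_51_P464900 had an SD within groups of 0.40, the widest of any linked probe that is not class I-like, and the other two 0.11 and 0.07. Why probes of a gene differ was not tested.

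The sequences of the Ddx39b, Vars2 and Neu1 probes are printed so that the probe whose ratio was low in the 2 mice can be set beside the other probe of the gene, none sharing 20 bases with a class I probe. The Ddx39b probes lie at chr17:33349453-33349629, plus strand, and chr17:33343229-33343288, plus strand, the Vars2 probes at chr17:33756509-33756568, minus strand, and chr17:33757358-33757500, minus strand, and the Neu1 probes at chr17:33031854-33031913, plus strand, and chr17:33032250-33032309, plus strand.
Ddx39b (A_51_P388099): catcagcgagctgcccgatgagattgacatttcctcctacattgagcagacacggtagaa
Ddx39b (A_52_P635776): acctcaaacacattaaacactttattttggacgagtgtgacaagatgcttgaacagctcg
Vars2 (A_52_P590235): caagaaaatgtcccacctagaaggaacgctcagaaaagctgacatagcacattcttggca
Vars2 (A_52_P185639): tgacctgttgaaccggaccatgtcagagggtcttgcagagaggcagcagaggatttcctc
Neu1 (A_51_P428035): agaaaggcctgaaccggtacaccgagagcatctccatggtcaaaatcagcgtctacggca
Neu1 (A_52_P58524): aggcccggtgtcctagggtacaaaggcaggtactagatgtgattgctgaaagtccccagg

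**Figure D2:**
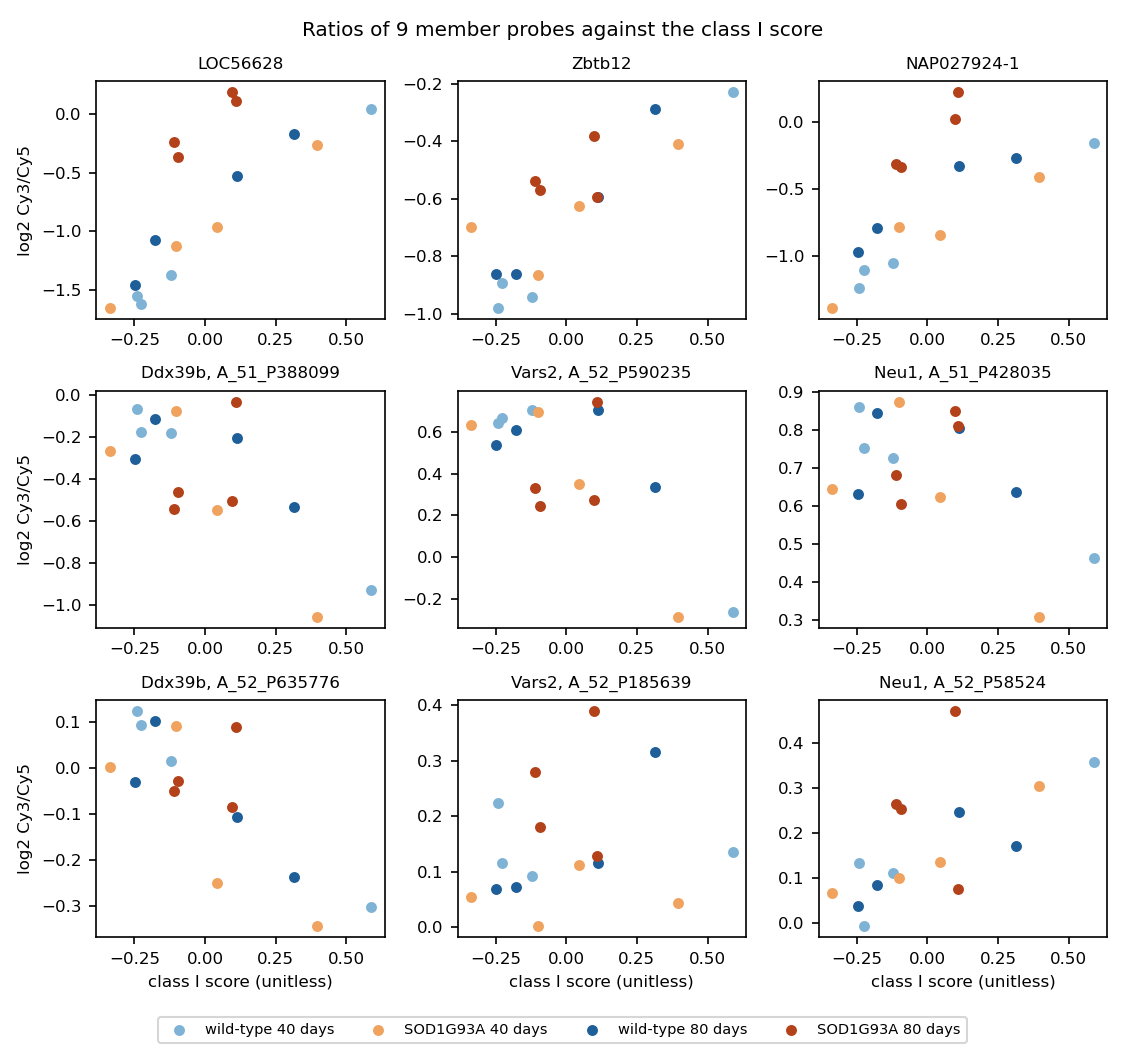
Log2 ratio of Cy3 to Cy5 of 9 linked probes on each of the 16 arrays (points, coloured by group) against the class I score of the array. LOC56628, Zbtb12 and NAP027924-1 rise with the score, both Ddx39b probes fall with it, and the 2 Neu1 probes slope opposite ways (r of -0.58 and 0.70).

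Along chromosome 17, the covariation on all 16 arrays did not stop at the lower end of the range. The 59 tested probes within 2 Mb below it had a median absolute r of 0.49, with 27.1% at 0.6 or more, while probes further away on either side had medians of 0.22 to 0.33. Without the 2 arrays of highest score the median of the 59 was 0.31, and those of probes further away were 0.21 to 0.32. Only 2 tested probes lay within 2 Mb above it. Within the range, windows of 0.5 Mb with 8 or more tested linked probes had medians of 0.25 to 0.52. Rgl2, just below the first linked probe, had r = 0.65, the first linked probe, for Wdr46, had r = -0.52, and the last one, for Olfr98, and its neighbour outside the range, Olfr99, were not well above background on any array. Absolute r of 0.8 or more was found in 10 linked probes, in 2 of the 28 tested probes of the range that were left out by name and are not class I, and in 28 of the 21789 tested probes that lie outside the range and are not class I. Of the latter, 4 lie within 2 Mb below the range (Cyp4f14, Zfp414, Zbtb22 and Sik1). ENSMUST00000077662 (r = 0.92) lies 0.22 Mb above it. Without the 2 arrays of highest score, an absolute r of 0.8 or more was found in 4 linked probes, 1 of them not class I-like. It was then found in 7 probes outside the range, 0 of them within 2 Mb below it. The r of neighbouring probes share the same 16 arrays and the same score.

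**Figure D3:**
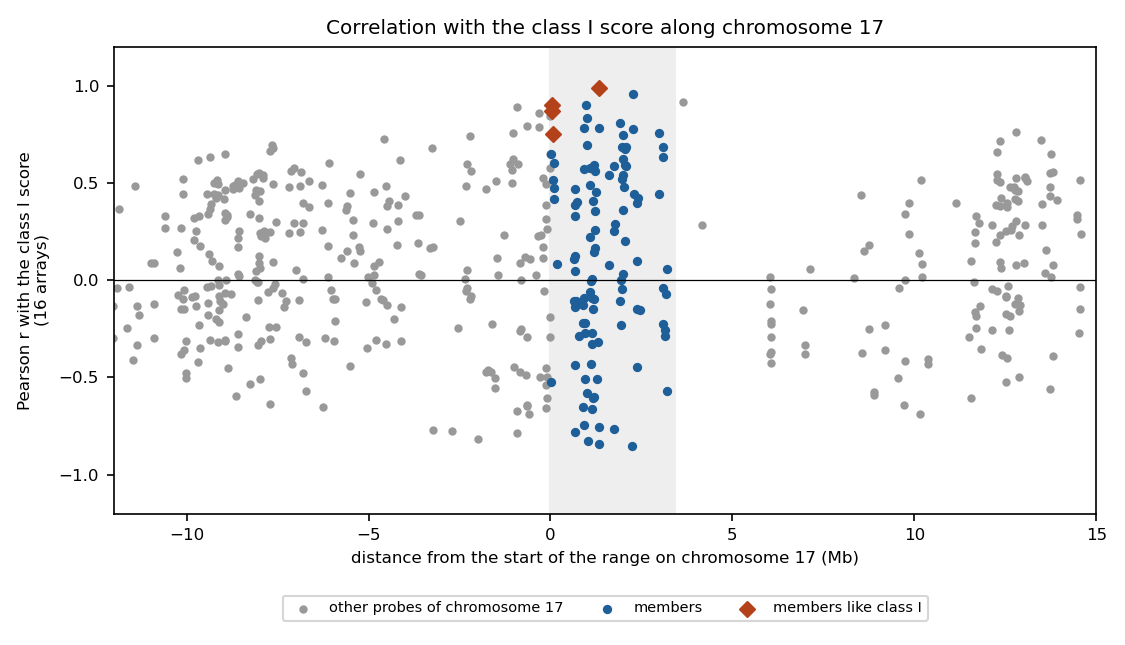
Pearson r of tested chromosome 17 probes with the class I score over 16 arrays (y axis) against distance from the start of the range in Mb (x axis). Class I probes and those left out by name are not shown. Linked probes are blue, the 4 class I-like ones red diamonds, other chromosome 17 probes grey, and the range is shaded. The 10 linked probes with absolute r of 0.8 or more lie in the shaded range. Of the other probes shown with such values, 4 lie within 2 Mb to its left and ENSMUST00000077662 lies 0.22 Mb to its right. Without the 2 arrays of highest score, 4 linked probes and 0 of the probes within 2 Mb to its left had such values.

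The first test asked whether genotype changed the linked genes at 40 days. With limma and p under 0.05, the threshold of the study's methods, 3 of 110 tested linked probes were called, 1 higher and 2 lower in SOD1G93A mice. Over the whole array 4.51% of 21338 probes were called (2.5% higher, 2.02% lower), so the linked probes' 2.73% lies below the background. No probe passed after Benjamini-Hochberg adjustment in limma, where the smallest adjusted p was 0.997. For single probes the exact two-sided permutation p is also given, which cannot fall below 0.0286 with 4 mice against 4. Agpat1, an enzyme of phosphatidic acid synthesis, was higher by 0.22 ± 0.07 (SE; exact permutation p = 0.0286) in 1 of its 2 probes, with ratios of 0.55, 0.41, 0.60 and 0.62 in wild-type and 0.89, 0.65, 0.70 and 0.83 in SOD1G93A mice, and the groups did not overlap. Complement C2 changed by -0.20 in probe A_52_P428699 (exact permutation p = 0.0286) and the splicing helicase Dhx16 by -0.19 (exact permutation p = 0.0571). With the Cy3 channel alone the Dhx16 change was 0.07. Leaving out wild-type 40 days replicate 4 raised the count to 16 of 110, or 14.6%, and the share over all probes rose with it to 8.95%.

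The same test at 80 days called 23 of 114 tested linked probes, for 19 genes, 17 higher and 6 lower in SOD1G93A mice. That is 20.2%, against 6.86% of 21603 probes (3.68% higher, 3.18% lower). None of the 23 passed the adjustment in limma (smallest adjusted p of a linked probe 0.659). The called changes ran from 0.18 to 0.73 upward and from -0.34 to -0.15 downward on the log2 scale. In 7 of the 23 the 2 groups did not overlap, but the 23 were called on the same arrays. Among all 114 linked probes this held for 8 at 80 days and 2 at 40 days. The share over the whole array is not given, so these counts are a description only. The median change of all linked probes was 0.05, and that of all tested probes -0.0020. The split of 17 higher to 6 lower depended on the scaling: it was 24 to 0 without normalization within arrays, which moved the median of all probes by 0.08, 8 to 8 with Feature Extraction's processed signals and 13 to 2 in the authors' series matrix.

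The largest change was that of LOC56628, the class I-like probe, at 0.73 ± 0.25 (limma adjusted p = 0.68, exact permutation p = 0.0857). The 4 SOD1G93A mice (-0.37, -0.24, 0.19 and 0.11) lay above wild-type replicates 2, 3 and 4, and wild-type replicate 1 lay among them. NAP027924-1 changed by 0.49 ± 0.18 (exact permutation p = 0.143). Of the 22 class I probes themselves, 10 were higher at 80 days and 0 lower at p under 0.05, and 0 of 20 were called at 40 days in limma.

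Among the role lists, that of chaperones, ubiquitin ligases and protein quality had the most called probes for its size. Of 11 tested probes of that list, 5 were called and higher, against 3.68% of all probes, with a median change of 0.18 over the list. The 11 probes stand for only 5 genes, and the called ones belong to Rnf5, Bag6 and Trim26, so probes of a gene are counted more than once. The lists were made with earlier results of these data known. Rnf5, a ubiquitin ligase of the endoplasmic reticulum, rose in both probes, by 0.31 ± 0.08 (exact permutation p = 0.0286) and 0.31 ± 0.12 (exact permutation p = 0.0571). The first read 1.03, 1.08, 0.91 and 1.01 in wild-type and 1.17, 1.33, 1.49 and 1.30 in SOD1G93A mice, with no overlap. Bag6, a chaperone for proteins bound for membranes, rose in 2 of 3 tested probes, by 0.28 ± 0.12 and 0.18 ± 0.08, and Trim26 in 1 of 2, by 0.28 ± 0.11. The microglia list, by comparison, had 0 of 23 probes called at this age (limma, p under 0.05) with a median change of 0.06, and the interferon list 0 of 26 with 0.15.

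Of 18 probes for RNA processing and translation, 5 were called and higher (median 0.12). Gnl1 changed by 0.41 ± 0.13 and 0.34 ± 0.11 in its 2 probes, reading 1.70, 1.04, 1.41 and 1.21 in wild-type and 1.61, 1.78, 1.94 and 1.66 in SOD1G93A mice in the first of them. Wild-type replicate 1 lay among the SOD1G93A values and the other 3 wild-type mice below them. Vars, the cytosolic valyl-tRNA synthetase, rose in 1 of 2 probes (0.34 ± 0.12, exact permutation p = 0.0857), and so did Skiv2l (0.35 ± 0.16, exact permutation p = 0.143) and 1 of 2 probes of Dhx16 (0.18 ± 0.07, exact permutation p = 0.0857). Of the lipid and sugar genes, Abhd16a, a lipase acting on phosphatidylserine, rose by 0.38 ± 0.15 and Agpat1 changed by -0.26 ± 0.11 in 1 of 2 probes. The tubulin acetyltransferase Atat1 rose in 1 of 3 probes (0.19 ± 0.06). It had been placed in the kinase and GTPase list, though it is neither, and was the only called probe of 12 there. Of 14 chromatin probes, 0 were called in limma at p under 0.05. The collagen receptor Ddr1, which was in no role list, rose by 0.29 ± 0.09. Wild-type mice lay at 0.72, 0.64, 0.73 and 0.67 and SOD1G93A mice at 0.87, 0.87, 0.93 and 1.25.

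The 6 lower probes were that of Agpat1, given above, and those of 4 other genes. Rpp21, a subunit of ribonuclease P, fell by 0.29 (SE 0.08, exact permutation p = 0.0286), with wild-type mice at 0.37, 0.30, 0.65 and 0.35 and SOD1G93A mice at 0.15, 0.07, 0.08 and 0.21. Nfkbil1, which resembles an inhibitor of NF-kB, fell by 0.19 (SE 0.06, exact permutation p = 0.0286), and neither gene's groups overlapped. Both probes of Znrd1, a subunit of RNA polymerase I, fell, by 0.16 and 0.15. 1110038B12Rik, which ran against the class I score, fell by 0.34, with SOD1G93A replicate 4 among the wild-type values. With Nfkbil1 it made up the 2 called probes of 13 in the immune list of the class III region, whose median change was -0.10. An immune role of 1110038B12Rik, which has only a clone name, was not checked, so these are not read as 2 immune genes. The myelin gene Mog rose in 1 of its 2 tested probes (0.27 ± 0.11), where the oligodendrocyte list had 3 of 21 probes higher and ranged from 2.93 to 3.34 in wild-type and 3.33 to 3.45 in SOD1G93A mice, whose part was not tested. With Feature Extraction's processed signals the Mog change was -0.27.

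**Figure D4:**
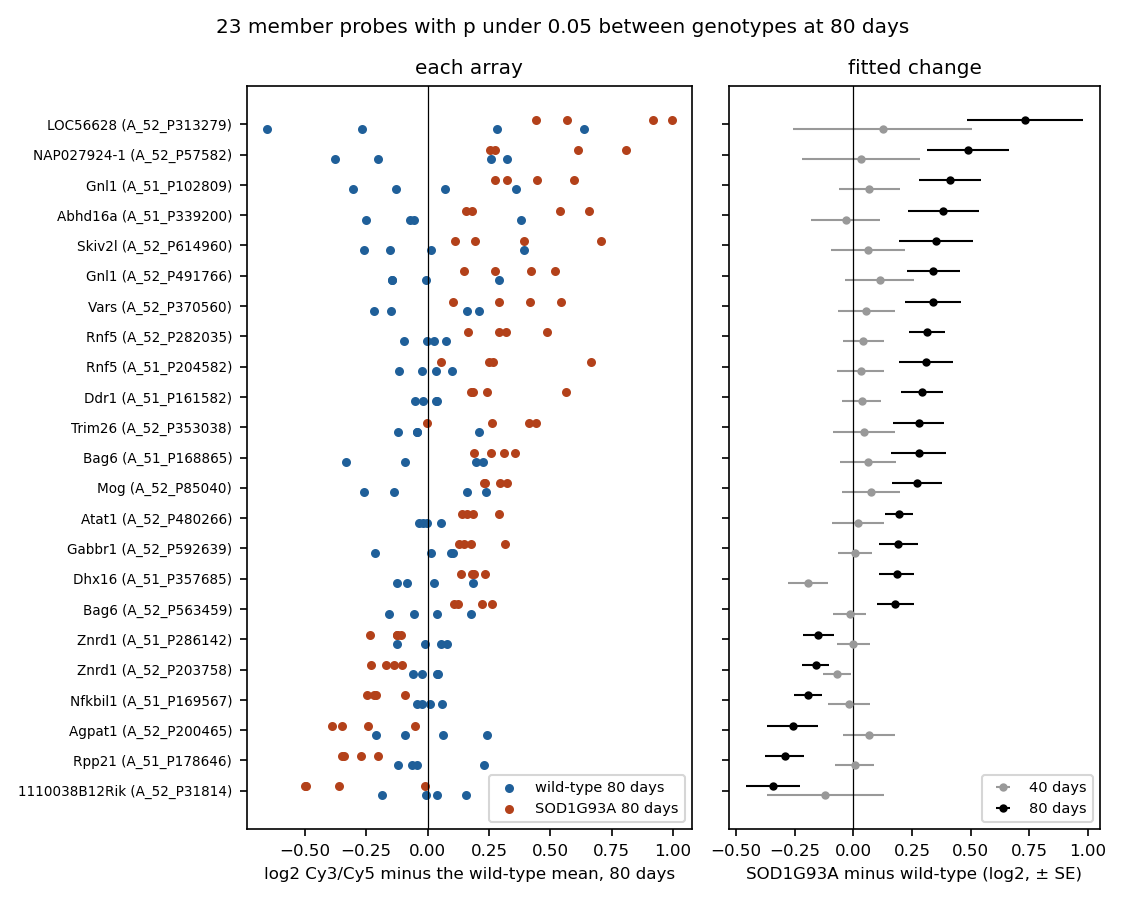
The 23 linked probes called at 80 days, with the log2 ratio of each array minus the wild-type mean (left, 4 wild-type and 4 SOD1G93A arrays per probe) and the fitted SOD1G93A minus wild-type change ± SE at 40 and 80 days (right). The 80-day changes run from -0.34 to 0.73. For 7 of these probes, which were called on the same arrays, the 2 groups of points do not overlap.

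The size of the 80-day change went with how a probe tracked the class I score within the groups, a measure taken after group means were removed. Of 67 linked probes with r above 0, 54 were higher in SOD1G93A mice, and of 47 with r below 0, 29 were lower. Outside the range, 6400 of 10326 probes with r above 0 were higher and 6987 of 11116 with r below 0 were lower. The share of linked probes with r below 0 that were lower is thus near that of other probes. Of the 23 probes with r of 0.6 or more, 7 were called higher and 0 lower (limma, p under 0.05) with a median change of 0.19. Of the 10 with r of -0.6 or less, 0 were called higher and 1 lower with a median of -0.04. Across the 114 probes the correlation of r with the change was 0.64 (0.61 without the class I-like ones). Across the 21442 tested probes outside the range it was 0.32, and at 40 days it was 0.32 over 110 linked probes and 0.02 over 21185 others. These are correlations across probes that share the same 8 arrays and neighbouring positions, and no p is given. The linked probes were proposed for covariation with class I genes in these same data, and 10 of the 22 class I probes were themselves called higher at 80 days. The 0.64 is therefore a description and does not stand as a separate result. Leaving out SOD1G93A 80 days replicate 3 lowered the number called to 12, wild-type 80 days replicate 4 to 14 and wild-type 80 days replicate 2 to 15, and the background fell to 4.54%, 5.06% and 5.49%. On the 4 slides taken one by one, all 4 differences had the fitted direction in 12 of the 23 probes. Those 23 were called on the same arrays, so this count is a description and no independent support.

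**Figure D5:**
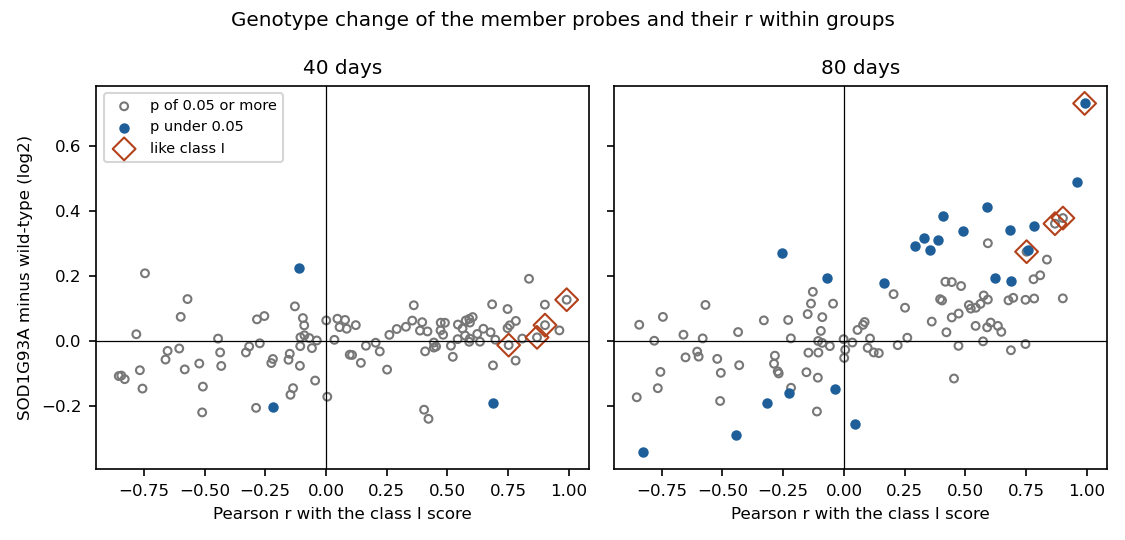
Fitted change of SOD1G93A against wild-type (log2, y axis) against Pearson r with the class I score within groups (x axis) for the linked probes at 40 days (left, 110 probes) and 80 days (right, 114). At 80 days the points rise from lower left to upper right (correlation 0.64 across probes), and at 40 days less so (0.32). The linked probes were proposed for covariation with class I genes in these same data.

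Whether the genotype change itself differed between the ages was tested as an interaction. Of 114 linked probes 4 were called (2 in each direction), or 3.51%, against 6.72% of 21953 (3.08% higher, 3.64% lower), and the smallest adjusted p of a linked probe in limma was 0.55. A larger number of calls at 80 than at 40 days is thus not, for most probes, a tested difference between the ages. Without normalization within arrays 24 were called, all higher, which is 21.1% against 19.6% of all probes, with the median of all probes at 0.20. The 4 were Agpat1 (A_51_P322612, -0.44 ± 0.14), Dhx16 (0.38 ± 0.11), Rpp21 (-0.30 ± 0.12) and Rnf5 (A_52_P282035, 0.27 ± 0.12). Dhx16 moved from -0.19 at 40 days to 0.18 at 80 days.

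The change from 40 to 80 days was tested within each genotype. In wild-type mice 15 of 114 probes (13.2%) were called, 8 higher and 7 lower at 80 days, against 15.2% of all probes (6.95% higher, 8.23% lower), so the linked probes lay near the background. In SOD1G93A mice 36 probes (31.6%) were called, 29 higher and 7 lower, against 16.9% (8.6% higher, 8.3% lower). The SOD1G93A 80-day mice enter both this comparison and that of genotype at 80 days, and whether age acted differently in the genotypes is the interaction above. Without normalization within arrays the wild-type split was 0 higher to 10 lower, with the median of all probes at -0.11, and the SOD1G93A split 32 to 2. Without SOD1G93A 80 days replicate 3 the number was 20, with a background of 12.3%.

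Mog had the strongest change with age in wild-type mice, -0.70 ± 0.12 (limma adjusted p = 0.00685), the only linked probe that passed the adjustment in any comparison, although with Feature Extraction's processed signals the change was 0.29. Its ratios were 4.02, 3.57, 3.85 and 4.07 in wild-type and 3.79, 4.02, 3.82 and 4.19 in SOD1G93A mice at 40 days, and 2.92, 3.42, 3.04 and 3.33 in wild-type and 3.41, 3.40, 3.50 and 3.47 in SOD1G93A mice at 80 days, and in SOD1G93A mice the change was -0.51 ± 0.12 (adjusted p = 0.0566). Of the 21 oligodendrocyte probes, 9 were lower with age in wild-type and 10 in SOD1G93A mice. The Gabbr1 probe A_51_P464900 changed by -0.66 ± 0.25 and -0.68 ± 0.25, reading 3.67, 3.70, 3.50 and 3.08 in wild-type mice at 40 days and 2.35, 3.42, 2.28 and 3.27 at 80 days, where replicates 1 and 3 lay below every 40-day mouse and the other two among them. Another Gabbr1 probe, A_52_P592639, changed by 0.19 ± 0.08 with age in SOD1G93A mice, so the probes differ in sign. Ddah2, which breaks down an inhibitor of nitric oxide synthase, was lower with age in both genotypes (-0.34 ± 0.10 and -0.24 ± 0.10).

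The complement gene C2 was higher at 80 days in both genotypes and both probes. Probe A_51_P497985 changed by 0.40 ± 0.14 in wild-type and 0.43 ± 0.14 in SOD1G93A mice, and it read -2.27, -2.01, -1.99 and -2.75 in wild-type and -2.66, -2.38, -2.41 and -2.44 in SOD1G93A mice at 40 days, and -1.55, -1.94, -2.02 and -1.92 in wild-type and -1.98, -1.94, -2.05 and -2.21 in SOD1G93A mice at 80 days. Its neighbour Cfb, factor B of the alternative complement pathway, changed by 0.24 ± 0.07 in wild-type (exact permutation p = 0.0286) and 0.10 ± 0.07 in SOD1G93A mice (exact permutation p = 0.0571). The nuclear receptor Rxrb was higher with age in both probes in SOD1G93A mice (0.32 ± 0.12 and 0.29 ± 0.11) and in 1 in wild-type mice. In SOD1G93A mice the protein quality list had 5 of 11 probes higher (Rnf5, Bag6 and Trim26) and the RNA and translation list 6 of 18 (Gnl1 and Vars in both probes, Vars2 and Ppp1r10). Agpat1 was lower in both probes (-0.38 ± 0.10 and -0.45 ± 0.12). The class I-like probes rose by 0.58 to 0.92, and NAP027924-1 by 0.75. Beside these, the microglia list had 5 of 23 probes higher with a median change of 0.32, ranging from 0.31 to 0.77 at 40 days and 0.53 to 1.49 at 80 days, and the interferon list 4 of 26 with 0.17, and the part of those cells was not tested. In bulk tissue, fewer cells of a type and less RNA per cell cannot be told apart.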

How the data were processed

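Lumbar cord RNA (Cy3) and the common reference (Cy5) were measured on 16 arrays of 60-base probes. The deposited scanner files hold spot and local background intensity per channel, extracted with Agilent Feature Extraction 9.5.3.1 per the labels, and the authors' series matrix holds log2 values that they normalized with Agi4x44PreProcess and limma. Those values follow the Cy3 channel, their centring is unknown, and they served as an alternative for genotype comparisons only. Here median signals were used, local backgrounds more than 20 units above the spot's signal were reset to the array's median background, and normexp (offset 50), loess within arrays and Aquantile between arrays were applied. Outlier spots were dropped and spots of a probe averaged. A probe was tested if well above background in Cy3 on 3 of 4 arrays of a group. Comparisons used limma 3.58.1 (R 4.3.3) with p under 0.05, as in the study's methods, and Benjamini-Hochberg adjustment over all tested probes. Calls rest on limma's p, and an exact permutation p is given for single probes.

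The linked probes and all gene lists were chosen with earlier results of these data known. Named probes were those with the widest spread, the highest and lowest r, or a p under 0.05 within a role list, with others named where a comparison of probes needed them. On simulated data with changes of 0.5 (log2), the genotype test recovered 95.9% at 40 days and 100% at 80 days. The called 80-day changes were mostly smaller (median 0.31 for higher and -0.23 for lower linked probes), and changes below 0.5 were not simulated. The simulated noise of these probes was independent between probes, unlike that of the linked probes. Replicate numbers are slides: same-numbered arrays correlated at -0.14 to 0.23 after group means were removed, so they were not treated as pairs. Alternatives covered background, normalization, filter, array weights, a slide block and each array left out. Exons and introns were not assigned, since no annotation of build mm7 was used here.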

Additional observations from a re-analysis of the deposited data

Results flagged for a closer look

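Of 196 groups of 4 arrays examined for a lone high or low array (gap to the nearest array over the group's range, above Dixon's critical value for 4 samples), 11 stood out, and chance gives about 1 in 20. Wild-type 40 days replicate 4, the array of highest class I score and fewest probes above background, was the lone highest for Zbtb12 (0.8825), LOC56628 probe A_52_P313279 (0.8513) and Flot1 (0.8322), and the lone lowest for Vars2 (0.9343), Ddx39b (0.8685) and BC023719 (0.8465). SOD1G93A 80 days replicate 4, the array of highest microglia and interferon markers, was the lone highest for Clic1 (0.8981), Ddx39b (0.8388), LOC56628 probe A_51_P190499 (0.8379) and Ddr1 (0.8335). Wild-type 80 days replicate 3 was the lone lowest for Ddah2 (0.9192).

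The genotype change differed between ages at p under 0.05 in limma for Agpat1 (-0.443), Dhx16 (0.3772), Rpp21 (-0.2984) and Rnf5 (0.2721), all log2. Their limma adjusted p were 0.567, 0.55, 0.71 and 0.724, so none passed the adjustment.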

How the results depend on the processing

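Of 936 values for the named changes with 1 array left out, 791 kept direction and side of the threshold, 145 lost the call and 0 reversed. Of 744 under other settings the numbers were 622, 117 and 5. The reversals were Dhx16 at 40 days (0.0731 with Cy3 alone and 0.05106 in the authors' series matrix), Mog at 80 days (-0.2737) and with age in wild-type mice (0.2904), both with processed signals, and Atat1 probe A_52_P176619 with age in SOD1G93A mice (0.001627 without normalization within arrays). The cause was not tested.

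At 40 days the 3 called linked probes became 0 with local backgrounds as deposited, with Cy3 alone and in the series matrix, and 6 without normalization within arrays or with array weights. With 1 array left out they numbered 2 to 16, the most without wild-type 40 days replicate 4. At 80 days the 23 became 15 in the series matrix, and 12 to 29 with 1 array left out (12, 14 and 15 without SOD1G93A replicate 3, wild-type replicate 4 and wild-type replicate 2). The 4 of the difference between ages became 7 with processed signals, 24 without normalization within arrays, 2 with Cy3 alone and in the series matrix, 9 without a filter on dim probes and 10 with array weights. With 1 array left out they were 2 to 10 (2 without wild-type 80 days replicate 3, 7 and 9 without wild-type 40 days replicates 2 and 3, 10 without wild-type 80 days replicate 1, 8 without SOD1G93A 80 days replicate 1). With age the 15 in wild-type mice ranged from 10 to 17 with 1 array left out, and the 36 in SOD1G93A mice from 20 (without 80 days replicate 3) to 38, or 23 with processed signals. The median absolute r of 0.44 was 0.2474 against H2-K1 probe A_51_P198434 alone and 0.32 to 0.50 with 1 array left out.

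With the slide as a replicate block the counts were 3, 22, 5, 16 and 34 for the comparisons in the order above, and no count moved by over 1.5 times, while 7 of 16 arrays correlated best with their own number. With 4 mice per group, small changes and dim probes, 71 of the linked probes untested, are the main limits.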

Other observations

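Of the 21789 tested probes that lie outside the range and are not class I, 28 had an absolute r of 0.8 or more with the class I score, given as values without a test. Without the 2 arrays of highest score, 7 probes had such a value. Of the 28, 6 lie on chromosome 17. ENSMUST00000077662, above the range, had r = 0.92, Cyp4f14, a cytochrome P450, r = 0.89, and the zinc finger genes Zfp414 and Zbtb22 r = 0.86 and 0.84. Sik1, a salt-inducible kinase, had r = -0.82 and Wdr43, far above the range, r = -0.85. On other chromosomes, Oxct1, an enzyme of ketone body use, had r = -0.89 and Rad21, a cohesin subunit, r = -0.84. Both probes of Atp6v1g1, a subunit of the vacuolar proton pump, had r of -0.82 and -0.80.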
